A study of Danio rerio with 2 samples.

Results

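REL, TNFAIP3 and nfkbiaa are 3 genes of the NF-kB pathway, taken here as the rows of both deposited tables that Ensembl pairs with these zebrafish names, and they are 3 of 19955 genes. REL has the identifier ENSDARG00000055276, TNFAIP3 ENSDARG00000027777 and nfkbiaa ENSDARG00000005481, and each name matched 1 row. They were measured by CEL-seq2, which counts the 3′ ends of transcripts with molecular identifiers, in single cells of the caudal hematopoietic tissue, the tail niche in which embryonic blood stem and progenitor cells (HSPCs) settle and expand. All cells came from wild-type zebrafish at 5 days post fertilization, with no treatment named in the labels and a sort day given as 6. Cells of a double (D) and a single (S) sort class were placed in 2 plates of 384 wells, plate 20 (replicate 1) and plate 21 (replicate 2). The labels name neither the markers behind double and single nor separate animals behind the plates. A p-value here rests on how differences between groups varied from plate to plate, which may be technical. That spread was estimated with information shared over all genes, so it is not the spread of each gene alone. The layout of plate 21 has no well numbers and was read along rows as on plate 20.

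NF-kB factors are held in the cytoplasm by inhibitor proteins until signals from receptors for cytokines or microbial products lead to destruction of the inhibitor. The freed factors enter the nucleus and raise transcription of immune and survival genes, and also of their own inhibitors, which closes a feedback loop. REL encodes a transcription factor subunit of the pathway, nfkbiaa a zebrafish counterpart of the inhibitor IκBα, and TNFAIP3 an enzyme that edits ubiquitin chains and dampens the signal upstream. These roles are known chiefly from mouse and human cells. In blood, the pathway acts in neutrophils and macrophages among other cells, and it also acts in the emergence of blood stem cells in zebrafish embryos.

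Cells are wells of at least 500 transcripts, which were 189 double and 111 single cells on plate 20 and 186 double and 89 single cells on plate 21. On plate 20 their depth summed to 1827596 transcripts for double and 1009392 for single cells, and on plate 21 to 2100851 for double and 936808 for single cells. Cells were grouped by genes other than the 3 described. Neutrophil-gene-rich cells had at least 1% of their transcripts from 7 neutrophil genes (lyz, npsn, mmp13a, MMP9, NCF1, ABCB9 and adam8a) and at most 5% globin. Globin-rich cells had over 5% of transcripts from 12 globin genes, and the remaining cells are called other cells. These groups held 28, 81 and 191 cells on plate 20 and 23, 77 and 175 cells on plate 21. Near the limits lay 26 cells with 4 to 5% globin, 23 cells with 5 to 6% globin, 4 cells with 0.5 to 1% and 5 cells with 1 to 2% neutrophil transcripts. A list of 9 progenitor genes summed on plate 20 to 1165 CPM (transcripts per 1e+06 of the summed cells) for double and 1205 CPM for single cells, and on plate 21 to 1309 CPM for double and 1175 CPM for single cells. The same list summed to 1157, 1127 and 1199 CPM in neutrophil-gene-rich, globin-rich and other cells of plate 20. On plate 21 these sums were 1149, 1157 and 1334 CPM. The list sum therefore does not show in which sort class progenitors lay. Muscle genes, which belong to another tissue, took on plate 20 22457 CPM for double and 3077 CPM for single cells, and on plate 21 614 CPM for double and 11064 CPM for single cells.

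Each of the 3 genes was found in a minority of cells and was concentrated in few of them. REL gave 475 transcripts in 193 of 575 cells (33.6%), with at most 13.02 in 1 cell. TNFAIP3, the ubiquitin-editing enzyme, gave 736 transcripts in 222 cells (38.6%), with at most 27.09 in 1 cell. The inhibitor nfkbiaa gave 1211 transcripts in 250 cells (43.5%), with at most 59.42 in 1 cell. The 58 cells with the most transcripts of a gene held 62.8% of REL, 66.6% of TNFAIP3 and 70.11% of nfkbiaa. REL reached 10 transcripts in 6 cells, TNFAIP3 in 19 cells and nfkbiaa in 35 cells, and 93 cells held 1 transcript of REL, 97 of TNFAIP3 and 102 of nfkbiaa. The 30 highest cells of plate 20 held 64.6% of REL, 69.5% of TNFAIP3 and 70.11% of nfkbiaa there, and the 28 highest of plate 21 held 60.9%, 62.7% and 70.0%.

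**Figure D1:**
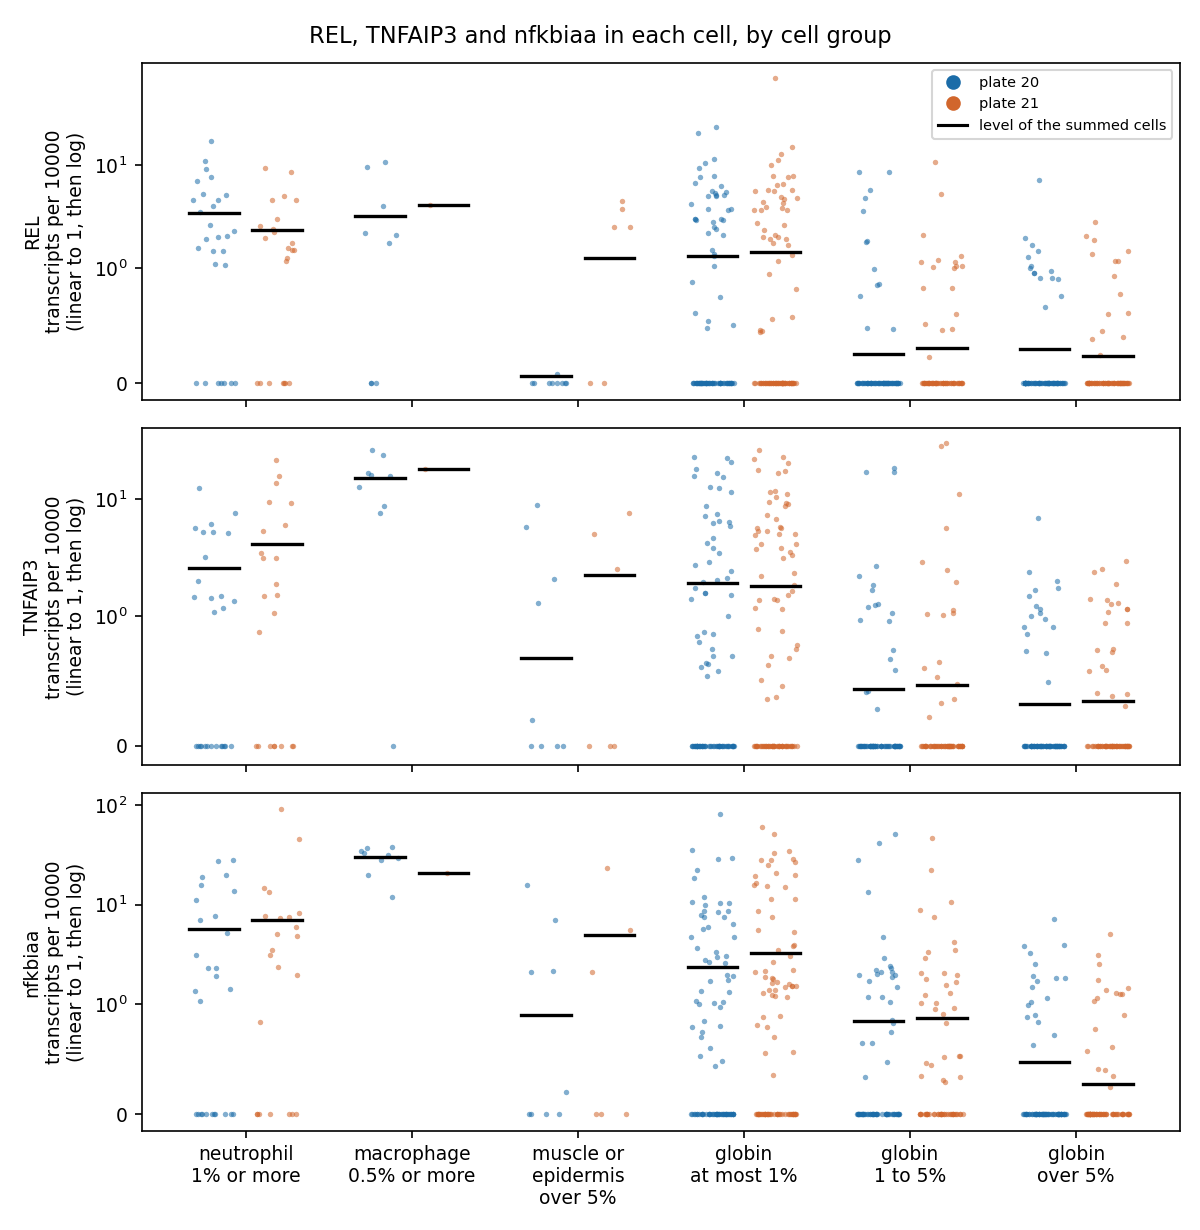
Transcripts per 10000 of REL, TNFAIP3 and nfkbiaa in each of the 575 cells (points), by cell group and plate, on an axis that is linear up to 1 and logarithmic above; a line marks the level of the summed cells of a group on a plate. Most cells with over 5% globin sit at 0, and all 10 cells rich in macrophage transcripts hold nfkbiaa.

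All 3 genes were higher in neutrophil-gene-rich cells than in other cells on both plates. REL, the factor subunit, stood at 339 CPM in neutrophil-gene-rich cells against 81.0 CPM in other cells of plate 20, and at 233 CPM against 92.0 CPM on plate 21. These levels rest on 56 and 40 REL transcripts in neutrophil-gene-rich cells and 161 and 176 in other cells, and their 95% Poisson intervals, which cover counting error only, do not overlap on either plate (256 to 441 CPM against 68.9 to 94.5 CPM on plate 20). Across both plates REL rose by 1.77 ± 0.22 on the log2 scale (SE of the edgeR fit, 2 plates, adjusted p = 3.38e-07). The test was edgeR's quasi-likelihood F test on cells summed by plate and group, with the plate as a block and Benjamini-Hochberg adjustment over 7336 genes. It called 43.2% of all genes and 20.5% of genes as higher, and the median log2 fold of all genes was -0.33, so a call alone does not set REL apart.

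TNFAIP3 stood at 254 CPM in neutrophil-gene-rich cells against 163 CPM in other cells of plate 20, and at 408 CPM against 128 CPM on plate 21. The gene rose by 1.24 ± 0.21 on the log2 scale (edgeR, adjusted p = 3.41e-05), and the fold of plate 20 alone was 0.66 and that of plate 21 alone 1.69. The size of its rise therefore depended on the plate, and its direction did not. The SE draws on the spread of all genes and does not measure the gap between these plate folds. The inhibitor nfkbiaa stood at 564 CPM in neutrophil-gene-rich cells against 249.9 CPM in other cells of plate 20, and at 701 CPM against 231 CPM on plate 21. It rose by 1.44 ± 0.16 on the log2 scale (edgeR, adjusted p = 4.56e-08). These levels lean on few cells. In the neutrophil-gene-rich group 1 cell held 29.1 of 93 nfkbiaa transcripts on plate 20, and 1 held 40.19 of 120 on plate 21. The medians per cell were 1 and 2. For TNFAIP3 the highest cell held 13.02 of 42 transcripts on plate 20 and 14.02 of 70 on plate 21. Neutrophil-gene-rich cells were 8.87% of cells and held 5.73% of all transcripts, but 20.2% of REL, 15.2% of TNFAIP3 and 17.6% of nfkbiaa transcripts. In the same groups the 15 macrophage rows summed to 861 CPM in neutrophil-gene-rich cells and 333 CPM in other cells of plate 20, and to 607 CPM and 143 CPM in those groups on plate 21; their part in the result was not tested.

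The same 3 genes were lower in globin-rich cells, which are of the red cell lineage by their globin share. REL stood at 29.3 CPM in globin-rich cells against 81.0 CPM in other cells of plate 20, and at 23.1 CPM against 92.0 CPM on plate 21. REL fell by 1.58 ± 0.25 on the log2 scale (SE, edgeR, adjusted p = 2.06e-05). TNFAIP3 stood at 32.2 CPM in globin-rich cells against 163 CPM in other cells of plate 20, and at 34.7 CPM against 128 CPM on plate 21. It fell by 1.95 ± 0.23 (edgeR, adjusted p = 2.87e-07). The inhibitor nfkbiaa, with 46.9 CPM in globin-rich cells against 249.9 CPM in other cells of plate 20 and 27.3 CPM against 231 CPM on plate 21, fell by 2.59 ± 0.20 (edgeR, adjusted p = 8.01e-11). The same test called 30.4% of all genes and 17.3% of genes as lower, with 13.1% called as higher and a median log2 fold of -0.02. Globin-rich cells held 27.8% of all transcripts but 8.84% of REL, 7.48% of TNFAIP3 and 4.79% of nfkbiaa transcripts.

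**Figure D2:**
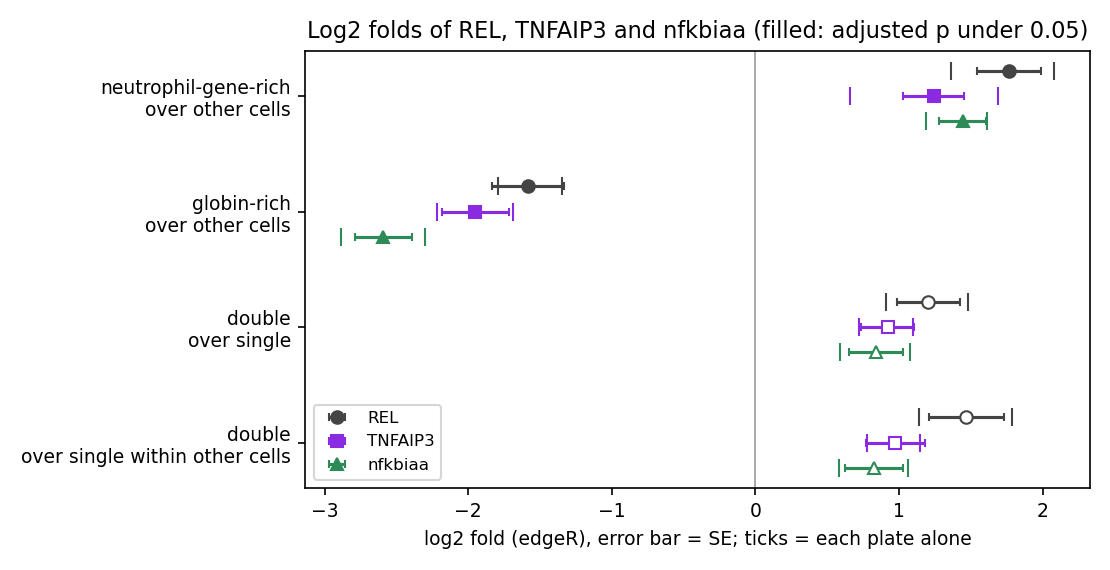
Log2 folds of REL, TNFAIP3 and nfkbiaa in 4 comparisons (edgeR, error bars are SE, vertical ticks are the folds of each plate alone; filled symbols have an adjusted p under 0.05). The folds of neutrophil-gene-rich over other cells lie between 1.24 and 1.77 and those of globin-rich over other cells between -2.59 and -1.58, all filled, while the folds of double over single cells lie between 0.83 and 1.47, all open.

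The share of cells with a transcript followed the levels. REL was found in 75.0% of neutrophil-gene-rich, 18.5% of globin-rich and 31.4% of other cells of plate 20, and in 69.6%, 19.5% and 37.7% of the same groups on plate 21. The groups had another order by depth, with medians of 5167 and 6710 transcripts in neutrophil-gene-rich cells, 8257 and 9581 in globin-rich cells and 7844 and 8935 in other cells of plates 20 and 21. With every cell thinned to 3000 transcripts, and 9 neutrophil-gene-rich, 9 globin-rich and 76 other cells below that depth left out, REL was found in 54.8% of neutrophil-gene-rich, 6.04% of globin-rich and 22.1% of other cells of both plates. The exact Clopper-Pearson 95% intervals of these shares were 38.7 to 70.15%, 2.80 to 11.2% and 17.4 to 27.3%. TNFAIP3 was found after thinning in 42.9% of neutrophil-gene-rich, 11.4% of globin-rich and 27.6% of other cells, and nfkbiaa in 50.0%, 12.1% and 30.7% of the same groups. For TNFAIP3 and nfkbiaa, unlike REL, the exact intervals of neutrophil-gene-rich and other cells overlap. Free RNA reaching a well gives transcripts in cells that do not express a gene, and its part in these shares was not tested.

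**Figure D3:**
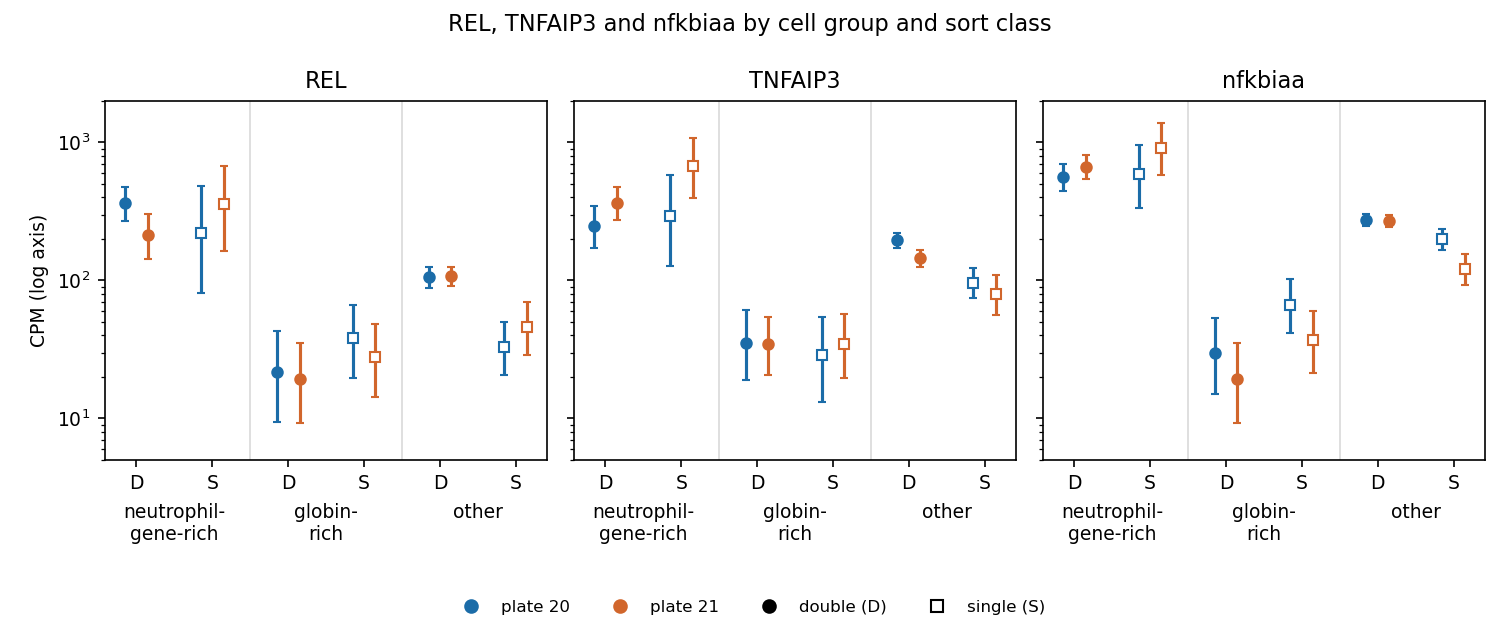
Level in CPM, on a log axis, of REL, TNFAIP3 and nfkbiaa in cells summed by cell group, sort class (D filled, S open) and plate, with 95% Poisson intervals. For each gene all globin-rich points lie below all neutrophil-gene-rich points, and in other cells double lies above single on both plates.

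Within other cells the 3 genes followed globin content and a small set of cells rich in macrophage transcripts, by limits that were chosen after the data were seen. Cells with at most 1% globin (96 on plate 20 and 99 on plate 21) held REL at 131 and 143 CPM, against 24.8 and 30.9 CPM in cells with 1 to 5% globin (77 and 69 cells). TNFAIP3 stood at 190.4 and 181 CPM with at most 1% globin, against 43.8 and 46.9 CPM with 1 to 5%. In neutrophil-gene-rich cells TNFAIP3 stood at 254 and 408 CPM. Its Poisson interval there overlaps that of cells with at most 1% globin on plate 20 (183 to 344 against 163 to 221 CPM), but not on plate 21. The inhibitor nfkbiaa stood at 236 and 324 CPM with at most 1% globin, against 84.8 and 86.9 CPM with 1 to 5%. On both plates, therefore, the level in cells with 1 to 5% globin lay closer to that of globin-rich cells than to that of cells with at most 1%, for all 3 genes; these values are a description, with no test.

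Macrophage-gene-rich cells had at least 0.5% of transcripts from 15 macrophage rows such as MPEG1, marco and ctss2.1, and there were 9 on plate 20 and 1 on plate 21. In these 10 cells REL stood at 316 and 412 CPM, TNFAIP3 at 1505 and 1790 CPM and nfkbiaa at 3030 and 2066 CPM on plates 20 and 21. On plate 20 they had 2.23% of all transcripts but 8.44% of REL, 24.6% of TNFAIP3 and 30.8% of nfkbiaa transcripts. They were 8 double and 1 single cell on plate 20 and 0 double and 1 single cell on plate 21, so they touch the comparison of sort classes unequally on the plates.

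MYB, a transcription factor of blood progenitors, divided the cells of low globin. After thinning to 3000 transcripts, REL stood at 279.6 CPM in 31 cells without a MYB transcript against 104 CPM in 45 cells with one on plate 20, and at 256 CPM in 30 cells without against 74.8 CPM in 49 cells with one on plate 21. TNFAIP3 stood at 452 and 656 CPM without MYB against 119 and 95.2 CPM with it, and nfkbiaa at 505 and 978 CPM against 133 and 177 CPM. All 3 genes were thus lower on both plates in the cells in which MYB was found, as a description with no test. For comparison, neutrophil-gene-rich cells without thinning held REL at 339 and 233 CPM, TNFAIP3 at 254 and 408 CPM and nfkbiaa at 564 and 701 CPM. Cells of low globin without MYB thus reached levels near or above these.

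With plate 21 read along rows, double cells had higher levels of each of the 3 genes than single cells on both plates, but none of the differences passed the test. On plate 20 REL was counted 197 times in double and 40 times in single cells, and on plate 21 the counts were 195 for double and 43 for single cells. This is 108 CPM in double against 39.6 CPM in single cells of plate 20, and 92.9 CPM against 45.9 CPM on plate 21. The log2 fold of REL was 1.21 ± 0.22 (SE, edgeR over 4 sums with the plate as a block, adjusted p = 0.262). REL was found in 40.2% of double against 18.02% of single cells of plate 20, and in 37.6% against 30.3% on plate 21.

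TNFAIP3 stood at 168 CPM in double against 80.3 CPM in single cells on plate 20, and at 132 CPM against 74.8 CPM on plate 21 (306 and 278 transcripts in double, 81 and 70 in single cells). Its log2 fold was 0.92 ± 0.18 (edgeR, adjusted p = 0.322). The inhibitor nfkbiaa stood at 247 CPM in double against 169 CPM in single cells on plate 20, and at 234 CPM against 104 CPM on plate 21 (452 and 492 transcripts in double, 170 and 97 in single cells). Its log2 fold was 0.84 ± 0.19 (edgeR, adjusted p = 0.350). edgeR called 0 of 8488 genes (0%) in this comparison while 725 had an unadjusted p under 0.05, and the Wald test of DESeq2 called 34 of 19707 genes, none of them among these 3. By unadjusted p they ranked 79, 100 and 141 of 8488.

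The cell groups and other markers moved with the sort class. Neutrophil-gene-rich cells were 11.6% of double against 5.41% of single cells on plate 20, and 9.68% against 5.62% on plate 21, while globin-rich cells were 21.7% of double against 36.0% of single cells and 19.4% against 46.1%. More cells of a type and more RNA per cell cannot be told apart in sums over a class. The macrophage rows summed to 397 CPM in double against 103 CPM in single cells of plate 20 and to 145 CPM against 90.8 CPM on plate 21. Without the macrophage-gene-rich cells nfkbiaa on plate 20 stood at 154 CPM in double against 157 CPM in single cells, and on plate 21 at 234 CPM against 88.2 CPM. In these sums its difference was thus seen on plate 21 only, with a log2 fold of 0.66 (edgeR, adjusted p = 0.680, an alternative added after seeing the data). REL and TNFAIP3 kept folds of 1.199 and 0.89 there. The plate 20 double sum still held 1 muscle-rich well of 249815 transcripts, 5 of them nfkbiaa, which lowers its CPM. Macrophage-gene-rich cells and muscle or epidermis wells were not left out together. With 15 wells of over 5% muscle or epidermis transcripts left out, edgeR called 106 of 8012 genes and all 3 passed, with log2 folds of 1.23, 1.05 and 0.88 and adjusted p-values of 0.0346, 0.0468 and 0.0165 for REL, TNFAIP3 and nfkbiaa. With the plate 21 layout read down columns the fold of TNFAIP3 was 0.43 and that of nfkbiaa 0.48, and neither passed (edgeR, adjusted p = 0.985 and 0.771). Plate 20 alone gave 1.097 for TNFAIP3. Plate 21 alone was not fitted with that layout, so the direction of TNFAIP3 on plate 21 is not settled.

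Among other cells alone, which are neither neutrophil-gene-rich nor globin-rich, the summed levels of the 3 genes again stood higher in double cells. REL was at 105 CPM in double against 33.0 CPM in single cells on plate 20, and at 107 CPM against 45.8 CPM on plate 21. Its log2 fold was 1.47 ± 0.26 (edgeR, adjusted p = 0.260), as large as over all cells. TNFAIP3 was at 196 CPM in double against 96.0 CPM in single cells on plate 20, and at 144 CPM against 79.2 CPM on plate 21, with a log2 fold of 0.97 ± 0.21 (edgeR, adjusted p = 0.395). For nfkbiaa the values were 275 CPM in double against 199.6 CPM in single cells of plate 20 and 268 CPM against 121 CPM on plate 21, with a log2 fold of 0.83 ± 0.20 (edgeR, adjusted p = 0.537). edgeR called 0 of 7460 genes (0%) here, with 441 under 0.05 before adjustment, and 18 of 19030 genes were called by the Wald test of DESeq2. The macrophage rows summed to 444 CPM in double against 114 CPM in single other cells of plate 20 and to 142 CPM against 144 CPM on plate 21, and nfkbiaa without the macrophage-gene-rich cells had a log2 fold of 0.64 (edgeR, adjusted p = 0.944). On plate 20 the 8 such double cells held 180 of 364 nfkbiaa transcripts of double other cells. The 1 such single cell held 12 of 133. In sums that include the muscle or epidermis wells, the higher level of nfkbiaa in double cells there thus depended on them. Outside them it stood at 239 CPM in double against 230 CPM in single cells with at most 1% globin. With 1 to 5% globin it was 83.3 against 86.9 CPM, and with over 5% muscle or epidermis transcripts 26.7 against 425 CPM.

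In globin-rich cells the order of the classes was the other way for REL and nfkbiaa, from few transcripts. REL was counted 8 and 10 times in double, against 12 and 12 times in single cells of plates 20 and 21, which is 21.8 and 19.2 CPM against 38.1 and 27.8 CPM. The inhibitor nfkbiaa stood at 29.9 and 19.2 CPM in double against 66.7 and 37.1 CPM in single cells, and TNFAIP3 at 35.4 and 34.6 CPM against 28.6 and 34.8 CPM. The double over single log2 fold in globin-rich minus that in other cells was -2.22 for REL, -0.94 for TNFAIP3 and -1.98 for nfkbiaa, and none passed the edgeR interaction test, added after seeing the data (adjusted p = 0.597, 0.921 and 0.368, with 0 of 5648 genes called, 0%, 296 at an unadjusted p under 0.05, and 0 called by DESeq2). Among neutrophil-gene-rich cells the single class held 11 cells, and REL stood at 363 CPM in double against 221 CPM in single cells of plate 20 but at 212 CPM against 357 CPM on plate 21. TNFAIP3 was lower in double cells there, with 247 against 294 CPM and 362 against 676 CPM, as was nfkbiaa, with 559 against 589 CPM and 665 against 914 CPM; the classes were not tested within this group.

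Together the 3 genes were found in 83 of 575 cells (14.4%). The rate expected from the share of each gene and from depth was not computed. All 3 were detected in 20 of 51 neutrophil-gene-rich cells (39.2%), in 4 of 158 globin-rich cells (2.53%) and in 59 of 366 other cells (16.1%). None was detected in 7.84% of neutrophil-gene-rich, 51.3% of globin-rich and 28.4% of other cells. Across cells of a plate, which share that plate and differ in depth, Pearson's r of log2(transcripts per 10000 + 1) between TNFAIP3 and nfkbiaa was 0.60 over 300 cells of plate 20 and 0.58 over 275 cells of plate 21. Between REL and TNFAIP3 it was 0.46 and 0.50, and between REL and nfkbiaa 0.46 and 0.37. Both inhibitors of the pathway were thus closer to each other than either was to the subunit, on both plates. After thinning to 3000 transcripts the order held, with 0.56 and 0.63 for TNFAIP3 and nfkbiaa, 0.44 and 0.41 for REL and TNFAIP3, and 0.38 and 0.38 for REL and nfkbiaa. REL had the fewest transcripts, 475 against 736 and 1211, and thinning of cells does not make the genes equally abundant. The part of abundance in this order was not tested. Within other cells alone r between TNFAIP3 and nfkbiaa was 0.62 over 191 cells and 0.54 over 175 cells.

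The genes whose pattern across cells was nearest to each of the 3 were taken by the lower r of both plates among 8070 genes found in at least 5% of cells. For REL they were tmsb4x, an actin monomer binding protein (r of 0.54 on each plate), CEBPB, a myeloid transcription factor (0.54 and 0.52), actb2, a cytoplasmic actin (0.48 and 0.49), CORO1A, a leukocyte actin regulator (0.58 and 0.46), and TNFAIP3. For TNFAIP3 the nearest was nfkbiaa, then marcksl1a (0.52 and 0.61), ENSDARG00000016062, ENSDARG00000005419 and marcksl1b (0.51 and 0.59). For nfkbiaa they were ENSDARG00000091078 (0.68 and 0.65), marcksl1a (0.59 and 0.59), samsn1a (0.58 and 0.62), TNFAIP3 and ENSDARG00000016062 (0.56 and 0.65). The lists of TNFAIP3 and nfkbiaa shared 2 of 5 genes and those of REL and TNFAIP3 shared 0 of 5, and nfkbiaa itself ranked 28 for REL, and 12 after thinning. With thinned values, 3 of 5 neighbours of REL, 3 of 5 of TNFAIP3 and 4 of 5 of nfkbiaa were still among the nearest 5.

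**Figure D4:**
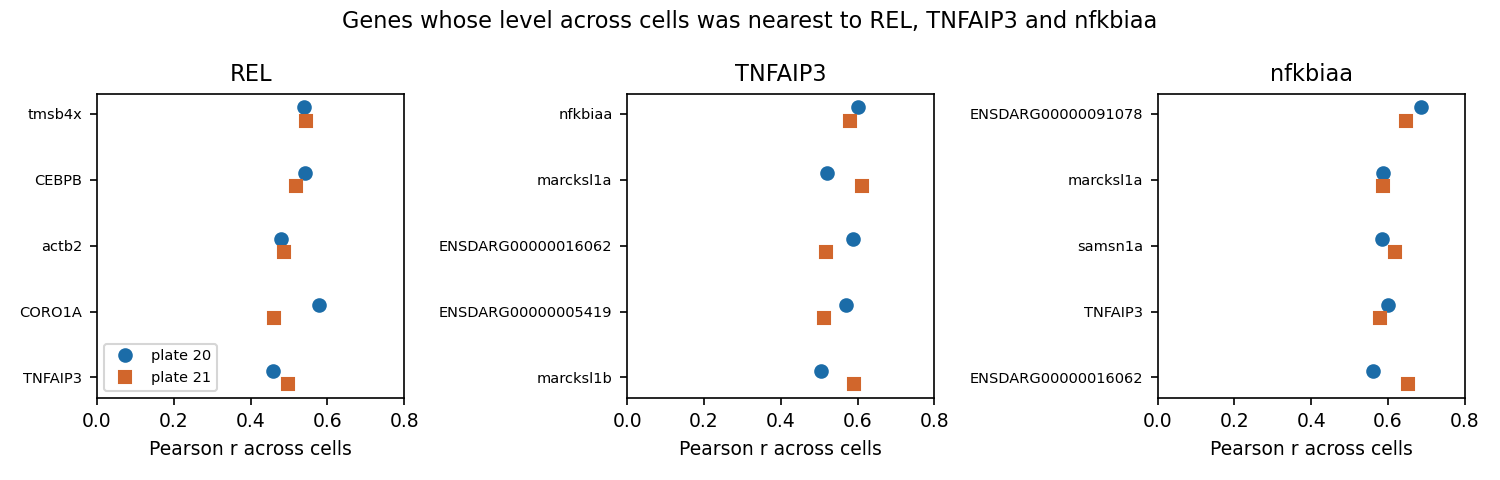
Pearson's r across cells between each of REL, TNFAIP3 and nfkbiaa and its 5 nearest genes, on plate 20 (circles, 300 cells) and plate 21 (squares, 275 cells). All values lie between 0.46 and 0.68, and nfkbiaa and TNFAIP3 appear in each other's list.

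Most of these neighbours stood highest in neutrophil-gene-rich cells on both plates. The exceptions were ENSDARG00000091078 and, on plate 20, marcksl1a. CORO1A, near REL, stood at 1134 and 998 CPM in neutrophil-gene-rich, 7.33 and 8.40 CPM in globin-rich and 80.5 and 75.3 CPM in other cells of plates 20 and 21. CEBPB, also near REL, stood at 1656 and 1649 CPM in neutrophil-gene-rich, 46.9 and 37.8 CPM in globin-rich and 327 and 376 CPM in other cells. The nearest gene of nfkbiaa, ENSDARG00000091078, stood at 78.7 and 52.5 CPM in neutrophil-gene-rich, 11.7 and 7.35 CPM in globin-rich and 172 and 144 CPM in other cells, so its level was highest in other cells on both plates, where that of nfkbiaa was not. Among the other neighbours of TNFAIP3 or nfkbiaa, samsn1a stood at 333 and 327 CPM in neutrophil-gene-rich against 51.8 and 31.9 CPM in other cells. ENSDARG00000005419 stood at 722 and 847 CPM against 264 and 66.0 CPM in the same groups. For marcksl1a the values were 248 and 274 CPM against 259 and 163 CPM. The neighbours were chosen by their likeness in these cells, and these levels are a description.

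Of 72 further NF-kB pathway names listed, 42 had a row, and rela and nfkb1 had none under these names. MMP9 was set aside because it also defines the neutrophil group. In neutrophil-gene-rich over other cells, 15 of 29 tested pathway genes rose and 1 fell, where 20.5% and 22.8% of all genes did, with a median log2 fold of 1.04 against -0.33 over all genes tested. Among receptors, tnfrsf1b and tnfrsf1a, receptors for tumour necrosis factor, rose by 2.48 ± 0.36 and 2.87 ± 0.50 (adjusted p = 3.03e-06 and 4.54e-05, edgeR), and tlr5b, a flagellin receptor, rose by 2.81, so 3 of 5 ligands and receptors were called. Genes can pass the filter on low counts through the group where they are high, so the counts and medians here and below describe the genes tested only. This holds for tnfrsf1a and tlr5b, and for bcl3 and IKBKE below, which passed it through the neutrophil-gene-rich sums. For example, tnfrsf1a stood there at 60.6 and 93.3 CPM against 11.6 and 9.93 CPM in other cells of plates 20 and 21. Their calls therefore add no separate support. Of 12 adaptors and kinases tested 3 were called, among them TRAF6 with 1.62 and tradd with 1.32. TRAF6 had only 4 and 9 transcripts in neutrophil-gene-rich cells of plates 20 and 21, so the size of its fold is uncertain. The third, the kinase IKBKE, had 12 and 3 transcripts in neutrophil-gene-rich cells of plates 20 and 21, against 4 and 7 in other cells, and its fold is not given for that reason. Both subunits tested besides REL rose, relb by 1.04 ± 0.34 and nfkb2 by 0.76 ± 0.27 (adjusted p = 0.0150 and 0.0250, edgeR).

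The 5 inhibitors and feedback genes that passed the filter on low counts were called in neutrophil-gene-rich cells, and those below it were not tested. The most abundant there was nfkbiab, the other zebrafish counterpart of IκBα, at 1232 CPM in neutrophil-gene-rich against 260.2 CPM in other cells of plate 20 and 1039.6 CPM against 223 CPM on plate 21. Its log2 fold was 2.28 ± 0.13 (edgeR, adjusted p = 5.63e-14), and NFKBIE rose by 2.18, tnip2 by 1.99 and CYLD by 1.92. CYLD had only 4 and 8 transcripts in neutrophil-gene-rich cells of plates 20 and 21, so the size of its fold is uncertain. The IκB-like regulator bcl3 rested on 4 and 6 transcripts in neutrophil-gene-rich cells of plates 20 and 21, against 16 and 12 in other cells, with a log2 fold of 2.08. Among known targets the apoptosis inhibitors BIRC2 and BCL2L1 rose by 2.79 and 2.11. SOD2, a mitochondrial superoxide dismutase, fell by 0.87 ± 0.31 (edgeR, adjusted p = 0.0251).

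In globin-rich over other cells, 11 of 29 tested pathway genes fell and 0 rose, where 17.3% and 13.1% of all genes did, with a median log2 fold of -0.44 against -0.02 over all genes tested. All 5 ligands and receptors tested fell, among them cd40, a costimulatory receptor, by 3.07 ± 0.43 and tnfb, a tumour necrosis factor ligand, by 2.36 ± 0.42 (adjusted p = 3.65e-06 and 8.77e-05, edgeR). Of inhibitors 4 of 5 fell, tnip2 by 2.45 and nfkbiab by 0.61 ± 0.13 (edgeR, adjusted p = 0.000997), while IRAK3 was the 1 of 12 adaptors and kinases called, with a fall of 3.42. Several of these folds rest on few transcripts in globin-rich cells of plates 20 and 21, so their size is uncertain. IRAK3 had 1 and 2, tnip2 3 and 3, cd40 3 and 5 and tnfb 6 and 5. The subunits relb and nfkb2 had log2 folds of -0.34 and -0.46 and were not called. The receptors tnfrsf1a and tlr5b, bcl3 and icam3 had at most 1 transcript in the globin-rich sum of a plate, and their fitted folds are not given for that reason. Against the fall of 2.59 for nfkbiaa, the value of 0.61 for nfkbiab is smaller; the difference between both genes was not tested.

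**Figure D5:**
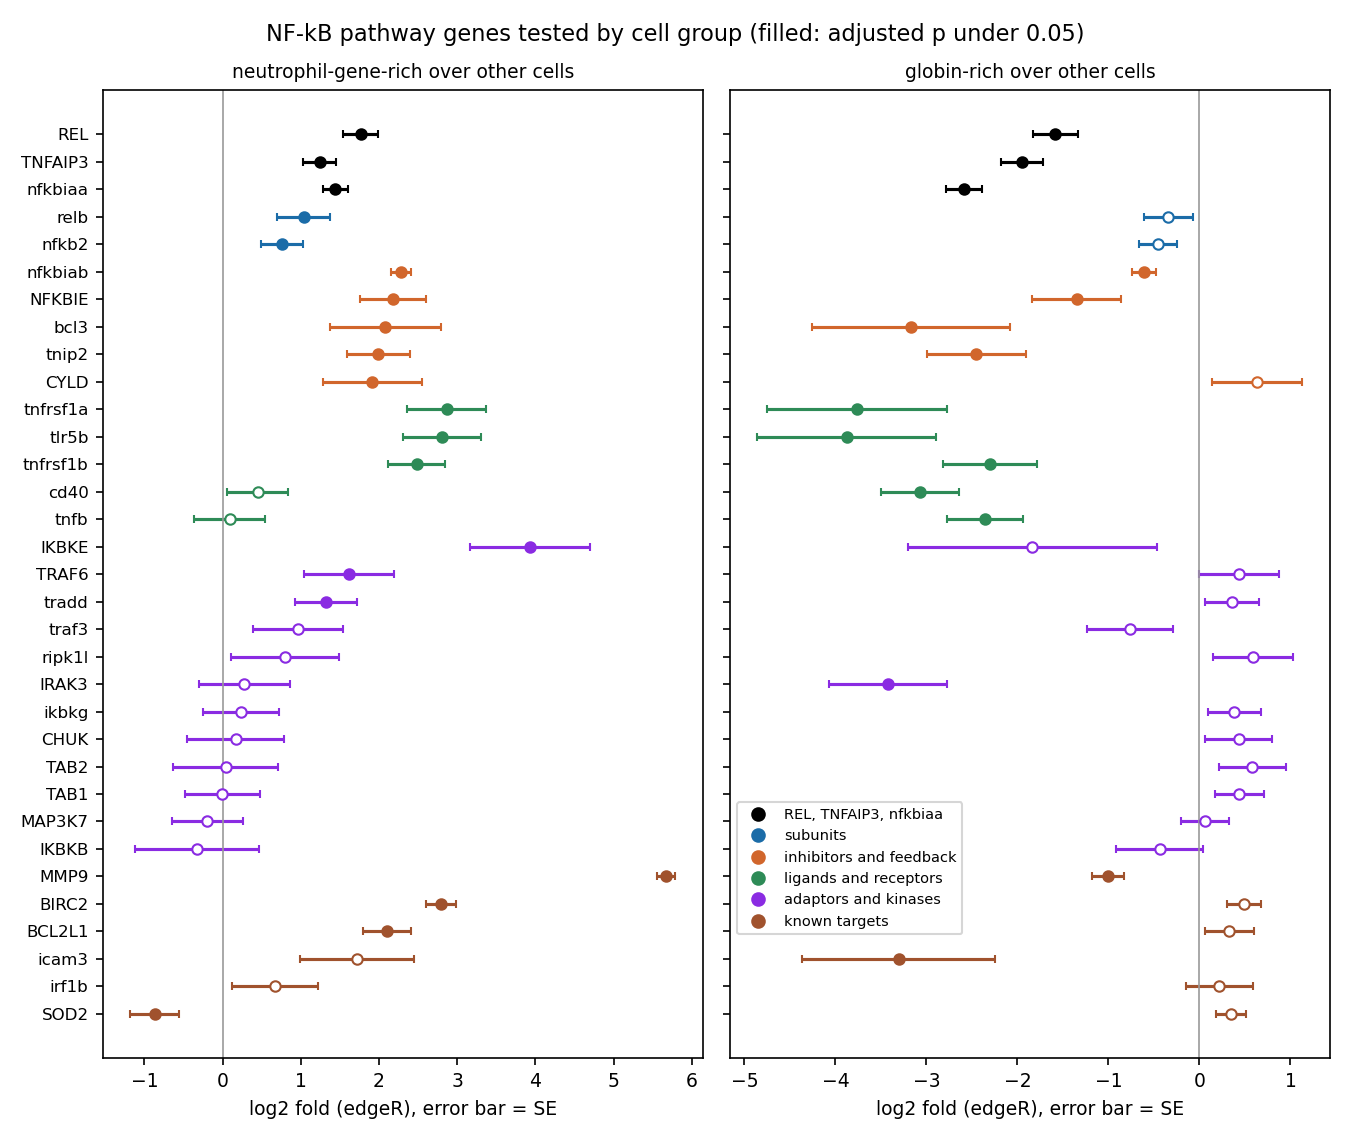
Log2 folds (edgeR, error bars are SE) of the tested NF-kB pathway genes by role, in neutrophil-gene-rich over other cells (left) and globin-rich over other cells (right); filled symbols have an adjusted p under 0.05. REL, TNFAIP3 and nfkbiaa are filled on both sides, the 5 inhibitors and feedback genes tested are filled on the left, and most adaptors and kinases are open on both sides.

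In double over single cells 0 of 29 pathway genes passed edgeR's test, as none of all genes did (0%), and 19 of 29 had a positive log2 fold, with a median of 0.36 against 0.01 over all genes. With MMP9, a matrix protease that is not among these 29, counted in again, the smallest p-values were those of MMP9, bcl3 and tnip2 (adjusted p = 0.285, 0.442 and 0.448, edgeR). Their log2 folds were 1.29 ± 0.24, 2.49 ± 0.66 and 1.23 ± 0.33. The bcl3 count of the single class was only 1 on plate 20 and 2 on plate 21. That of the double class was 19 and 17, so the size of the bcl3 fold is uncertain. Within other cells 0 of 26 passed, with a median log2 fold of 0.29. There the smallest p-values belonged to NFKBIE, tnip2 and nfkbiab, with log2 folds of 1.58, 1.26 and 0.53 (adjusted p = 0.609, 0.761 and 0.808, edgeR). For nfkbiab over all cells the levels were 339 CPM in double against 201 CPM in single cells of plate 20 and 264 CPM against 191 CPM on plate 21.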

How the data were processed

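Per the submitters' processing notes, reads were aligned with BWA to Zv9. Neither its version nor the counter is stated, and filters were not given in the sources used. In the deposited tables the values are expected counts, made by the authors as 1 value per gene and well without scaling to depth; all of 1273614 values above 0 (100%) equalled a whole identifier count corrected for repeated draws from 4096 identifiers, within 0.01. Spike-ins (163600 and 188463 transcripts) were left out. Names were paired with 15742 of 19955 IDs (78.9%); no genome was used, so no position or sequence is given. Antisense or overlapping genes could share reads.

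Wells with at least 500 transcripts were kept. The columns of both tables are wells, not barcodes, and no doublet caller was run on sorted wells. The 21 undefined wells entered no comparison. The members, lists, cell groups and tests were chosen with earlier results of these data known. Cells were summed per plate and class or group, and the sums, rounded to whole numbers, were tested two-sided with edgeR 4.0.16 in R 4.3.3 (TMM, filterByExpr, quasi-likelihood F test, plate as block because both classes and all groups come from the same plates; 1 residual degree of freedom for 4 sums and 2 for 6). Calls have an adjusted p under 0.05; the SE was derived from F. DESeq2 1.42.0, Python 3.11.15, numpy 2.4.6 and scipy 1.17.1 were also used, and the test was checked on simulated data. Levels in CPM are transcripts of summed cells over their total, without TMM. From the pathway list, genes passing the adjusted p and the 3 with the smallest p per comparison were named, and the 5 nearest genes by r. Alternatives were another scaling or test, no block, no low-count filter, other cell minimums (250 and 1000), thinning, wells left out, other group limits, the plate 21 layout read down columns and each plate left out.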

Additional observations from a re-analysis of the deposited data

Results flagged for a closer look

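These ratios were flagged because both plates went one way in one cell group and the opposite way in another. The rule looks at signs only and was not run over all genes, so how common such a pattern is was not tested. In globin-rich cells of plates 20 and 21 REL rested on 8 and 10 transcripts in double and 12 and 12 in single cells. The log2 ratio of double over single CPM in globin-rich cells minus that in other cells was -2.12 for REL as a mean of the plates, with -0.81 and -0.53 in globin-rich cells and 1.67 and 1.23 in other cells of plates 20 and 21. For nfkbiaa the same difference was -1.86, with -1.16 and -0.95 in globin-rich cells and 0.46 and 1.15 in other cells. The 0.46 of plate 20 includes 8 macrophage-gene-rich double cells, which held 180 of the 364 nfkbiaa transcripts of double other cells there. Neither difference passed the edgeR interaction test given above (adjusted p = 0.597 for REL and 0.368 for nfkbiaa). With muscle and epidermis wells left out the difference for nfkbiaa passed it, with a fitted value of -2.05 (edgeR, adjusted p = 0.0106), where 9 of 5512 genes were called. It also passed with no filter on low counts, at -1.96 (edgeR, adjusted p = 0.00717), where 26 of 19488 genes were called. It did not without macrophage-gene-rich cells, at -1.83, nor with the plate 21 layout read down columns, at -1.34 (edgeR, adjusted p = 0.889 and 0.986), and over all alternatives with a test the adjusted p ranged from 0.00717 to 0.999974 (edgeR and DESeq2).

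Neutrophil-gene-rich and other cells differed in the sign of the same ratio for TNFAIP3, by -1.53 as a mean of the plates, with -0.25 and -0.90 in neutrophil-gene-rich and 1.03 and 0.87 in other cells. For nfkbiaa the difference was -1.07, with -0.08 and -0.46 in neutrophil-gene-rich and 0.46 and 1.15 in other cells. These differences were not tested, and the single class of neutrophil-gene-rich cells held 11 cells and 52375 transcripts.

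Undefined wells, which enter no comparison, held transcripts of the inhibitors above the limit that a count of 0 allows. TNFAIP3 had 31 transcripts in the 16 undefined wells of at least 500 transcripts, and 19.04 of them came from 1 well of plate 20. The inhibitor nfkbiaa had 54 transcripts in the same wells, which is 549 CPM on plate 20 and 330.4 CPM on plate 21.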

How the results depend on the processing

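No fold of REL, TNFAIP3 or nfkbiaa reversed under any alternative run. Plate 21 alone was not run with its layout read down columns. The globin-rich minus other difference of double over single for TNFAIP3 shrank to -0.20 with the plate 21 layout read down columns. The 2 plates leave few degrees of freedom, and sparse transcripts (15 to 39 per gene in single neutrophil-gene-rich cells of both plates) limit the precision by class within groups. The number of genes tested differs between alternatives. Genes called for double over single cells numbered 34 of 19707 with DESeq2's Wald test, 368 of 19707 with no filter on low counts, 12 of 894 when each cell was thinned to 500, 106 of 8012 without muscle and epidermis wells and 3 of 8414 with the plate 21 layout read down columns. The first 4 of these alternatives gave 18 of 19030, 219 of 19030, 35 of 571 and 4 of 6848 genes within other cells, and a globin limit of 10% gave 1 of 7974. For neutrophil-gene-rich over other cells the Wald test called 1884 of 19707 genes and edgeR after thinning to 500 called 305 of 618, against 3172 of 7336 in the main test. For globin-rich over other cells these were 611 of 19707, 170 of 618 and 2229 of 7336 genes, and a globin limit of 10% gave 1084 of 4315. With no filter the double over single folds of REL, TNFAIP3 and nfkbiaa were 1.24, 0.96 and 0.88 and passed the threshold, as did 1.23, 1.05 and 0.88 without muscle and epidermis wells; within other cells REL (1.54) and TNFAIP3 (1.05) passed with no filter. The fold of nfkbiaa in neutrophil-gene-rich over other cells was 0.91 and no longer passed when thinned to 500 (edgeR, adjusted p = 0.0648), where REL and TNFAIP3 had too few transcripts to be tested. The plate 21 layout read down columns gave double over single folds of 0.92, 0.43 and 0.48 for REL, TNFAIP3 and nfkbiaa, and 0.36 for TNFAIP3 within other cells. Where no cause is given, the cause was not tested. With no replicate block these folds were 1.21, 0.93 and 0.81 with 0 genes called, and 3065 and 1751 genes were called for neutrophil-gene-rich and globin-rich over other cells; no call of REL, TNFAIP3 or nfkbiaa changed without the plate pairing.

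With each plate left out, which leaves no residual degrees of freedom and no test, the double over single folds ranged from 0.91 to 1.48 for REL, 0.72 to 1.097 for TNFAIP3 and 0.59 to 1.07 for nfkbiaa. For neutrophil-gene-rich over other cells they ranged from 1.36 to 2.08, 0.66 to 1.69 and 1.19 to 1.62 in that gene order, and for globin-rich over other cells from -1.79 to -1.35, -2.21 to -1.69 and -2.88 to -2.30. Within other cells the double over single folds ranged from 1.14 to 1.79, 0.78 to 1.15 and 0.58 to 1.06.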

Other observations

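The well with the most transcripts, a double cell of plate 20 among the other cells, held 249815 transcripts, of which 14.9% were from muscle genes. It held 2 REL, 5 TNFAIP3 and 5 nfkbiaa transcripts. Wells under 500 transcripts, 77 on plate 20 and 100 on plate 21, held 0 and 2 REL, 4 and 1 TNFAIP3 and 1 and 1 nfkbiaa transcripts. Cells with over 5% muscle or epidermis transcripts, 9 on plate 20 and 6 on plate 21, had nfkbiaa at 90.0 and 496 CPM, TNFAIP3 at 67.5 and 223 CPM and REL at 6.43 and 126 CPM.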
